A study of Mus musculus with 7 samples.

Results

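Deep intragenic H3K27ac regions are stretches of acetylated chromatin that lie inside a gene and far from any gene boundary. They were taken here as runs of at least 200 bp covered by peaks of both H3K27ac libraries, lying wholly inside a protein-coding gene and more than 10 kb from every protein-coding gene end on chromosomes 1 to 19. Of 44512 such runs of shared H3K27ac coverage, 13779 (31.0%) met the rule, and together they held 17.6 Mb, or 27.5% of the bases shared by the libraries. A further 23265 runs lay within 10 kb of a gene end and 7468 lay outside genes. The ChIP-seq material was c-Kit-selected globose basal cells from the olfactory epithelium of adult wild-type mice, collected 7 to 10 days after methimazole, a compound that destroys much of this epithelium. Each library was made from the pooled cells of 3 mice, and the set comprised 2 H3K27ac libraries, 2 H3K27me3 libraries and 3 inputs. Every group carried the same lesion, with no unlesioned group among the samples, and c-Kit selection can also take other cells that carry this receptor.

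H3K27ac is placed on histone H3 at active promoters and enhancers, while H3K27me3 is placed on the same residue by Polycomb Repressive Complex 2 and accompanies silent developmental genes. One histone tail cannot carry both marks at that residue, so peaks of both at one place cannot come from a single tail. Long genes often hold enhancers in their introns, and many hold internal promoters that give shorter transcripts. Globose basal cells divide and rebuild the neurons and supporting cells of the olfactory epithelium after injury.

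The sequences below are 5 internal gene starts that lie in deep regions, shown because the region with the highest H3K27ac enrichment and the region with the most bases under H3K27me3 both lay at such a start. Each is a RefSeq promoter window of GRCm38.p6 that runs from 250 bases before to 50 bases after a transcript start, written 5′ to 3′ on the gene's strand with every CpG in capitals.
Baz2b internal start, chr2:60125691-60125990, minus strand: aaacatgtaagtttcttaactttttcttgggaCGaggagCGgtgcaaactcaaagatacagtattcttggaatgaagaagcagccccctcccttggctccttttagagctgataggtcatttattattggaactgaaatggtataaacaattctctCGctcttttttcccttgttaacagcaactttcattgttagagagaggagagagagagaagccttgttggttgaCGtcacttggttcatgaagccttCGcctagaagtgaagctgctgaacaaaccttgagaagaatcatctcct
Kansl1 internal start, chr11:104442271-104442570, minus strand: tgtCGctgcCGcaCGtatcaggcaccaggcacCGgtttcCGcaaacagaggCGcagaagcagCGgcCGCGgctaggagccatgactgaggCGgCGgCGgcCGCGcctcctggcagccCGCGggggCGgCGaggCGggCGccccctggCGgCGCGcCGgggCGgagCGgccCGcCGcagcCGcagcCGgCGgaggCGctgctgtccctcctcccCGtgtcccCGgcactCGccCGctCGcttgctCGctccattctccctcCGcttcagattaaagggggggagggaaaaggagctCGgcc
Slc39a10 internal start, chr1:46853569-46853868, minus strand: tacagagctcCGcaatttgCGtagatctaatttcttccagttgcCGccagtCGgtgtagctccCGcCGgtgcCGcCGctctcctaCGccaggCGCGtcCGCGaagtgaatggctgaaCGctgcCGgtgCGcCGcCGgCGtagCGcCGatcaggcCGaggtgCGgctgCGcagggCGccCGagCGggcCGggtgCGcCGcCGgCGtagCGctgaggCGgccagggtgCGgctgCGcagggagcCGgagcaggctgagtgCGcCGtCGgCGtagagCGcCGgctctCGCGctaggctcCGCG
Lhx2 internal start, chr2:38351058-38351357, plus strand: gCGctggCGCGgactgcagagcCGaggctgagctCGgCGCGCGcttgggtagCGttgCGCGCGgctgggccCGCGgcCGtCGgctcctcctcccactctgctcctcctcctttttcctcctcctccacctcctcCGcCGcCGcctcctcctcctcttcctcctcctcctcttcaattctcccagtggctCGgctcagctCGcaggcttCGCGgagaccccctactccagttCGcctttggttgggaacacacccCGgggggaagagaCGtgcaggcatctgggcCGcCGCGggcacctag
Runx1 internal start, chr16:92697280-92697579, minus strand: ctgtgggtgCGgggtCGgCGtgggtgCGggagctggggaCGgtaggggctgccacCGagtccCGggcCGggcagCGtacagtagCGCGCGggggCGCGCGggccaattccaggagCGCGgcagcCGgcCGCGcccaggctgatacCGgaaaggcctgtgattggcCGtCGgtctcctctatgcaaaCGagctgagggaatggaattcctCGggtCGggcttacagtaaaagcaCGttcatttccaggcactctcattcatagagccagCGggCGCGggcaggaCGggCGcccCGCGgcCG

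The region at the internal start of Baz2b, which encodes a bromodomain protein, had the highest enrichment of all deep regions. It spanned chr2:60124553-60125801 and reached a fold enrichment of 42.2 in H3K27ac replicate 1 and 31.6 in replicate 2. Fold enrichment is the authors' value for a peak, a linear ratio of signal to background, and each region was given the highest value among the peaks that overlap it in that library. Kansl1, a subunit of the NSL histone acetyltransferase complex, had 25.3 and 22.1 over a region of 1765 bp at chr11:104441391-104443155. Slc39a10, a zinc transporter, reached 21.6 and 18.1 at chr1:46852553-46854442. These starts differed in base composition. The Baz2b window had 41.7% GC and an observed to expected CpG ratio of 0.385, while the Kansl1 window had 75% and 0.948 and the Slc39a10 window 72.3% and 1.20. No H3K27me3 peak overlapped the Baz2b or Kansl1 region, and at Slc39a10 only H3K27me3 replicate 1 covered part of the region, 422 of its 1890 bp.

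The other 7 of the 10 regions with the best mean rank of enrichment lay in Epc1 (26.7 and 23.1), Zfp638 (30.6 and 19.5), Tnrc6a (23.6 and 19.7), Fam13b (23.2 and 18.3), Mrpl48 (23.3 and 16.9), Tlk2 (22.9 and 17.4) and Lrif1 (22.9 and 16.9). Epc1 is a subunit of the NuA4 acetyltransferase complex, Tnrc6a a partner of Argonaute in microRNA silencing, Mrpl48 a mitochondrial ribosomal protein and Tlk2 a kinase of chromatin assembly. Of these 10 regions, 8 held a start of their own host gene. The Epc1 and Fam13b regions are on chromosome 18, for which no start windows were used. In all 10, replicate 1 was above replicate 2, as in 10105 (73.3%) of the deep regions. None of the 10 was overlapped by H3K27me3 replicate 2.

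Start windows were available for 2648 of the 3354 host genes (79.0%), and 10932 deep regions lay in such a host. A region was counted as holding a start where it overlapped the window by at least 1 bp. A start of the host gene itself was held by 515 regions (4.71%), a start of another gene by 139 (1.27%), and no listed start by 10278 (94.0%). Regions with a host start were more enriched, with a median of 6.27 in replicate 1 and 4.92 in replicate 2, against 3.90 and 3.46 for regions with no start. They were also longer, with a median of 1472 bp against 803 bp. A fold enrichment of 10 or more in both libraries was found for 60 of the 10932 regions, and 53 of these (88.3%) held a start of the host. Among all 44512 regions 5.95% reached that level in both libraries. Of the 100 deep regions with the best mean rank, 84 held a host start and 2 a start of another gene. These values come from the same peaks that chose the regions and are given as a description, as are all H3K27ac levels here, and no test was applied.

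**Figure D1:**
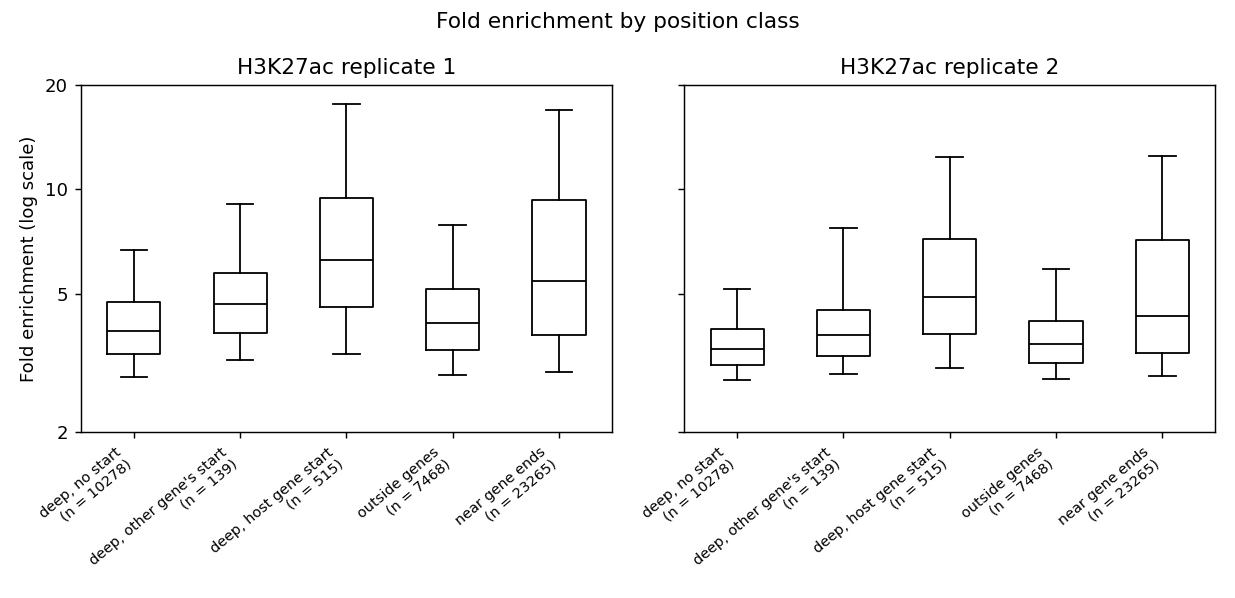
Fold enrichment (log scale, the authors' peak values) of H3K27ac regions by position, for replicate 1 and replicate 2. Boxes show the median and quartiles and whiskers the 5 and 95 percentiles. Deep regions that hold a host start have medians of 6.27 and 4.92, above the 3.90 and 3.46 of deep regions with no start.

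Seen from the starts, 1406 start windows of protein-coding genes lay in the eligible sequence, and 588 of them (41.8%) overlapped a deep region. Eligible sequence is the part of a gene more than 10 kb from every protein-coding gene end, and 3.10% of all 300-base tiles of it overlapped a deep region. The 588 starts belonged to 460 genes, so some of them are near neighbours of one another. CpG-rich starts were taken up most often. With a CpG ratio of 0.6 or more, 280 of 353 windows (79.3%) overlapped a region, against 308 of 1053 (29.2%) below it. Starts of long noncoding RNAs did so in 252 of 1713 cases (14.7%), with 50.5% at the higher CpG ratio and 12.4% at the lower. The median CpG ratio was 0.579 for protein-coding starts in a region, 0.255 for those outside one and 0.389 for all 31396 promoter windows of the table.

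Among the 515 regions with a host start, the 239 with a CpG ratio of 0.6 or more had median enrichments of 8.57 and 6.34. The 276 below that ratio had 5.17 and 4.25. Across these 515 regions the CpG ratio and the enrichment had Spearman correlations of 0.53 in replicate 1 and 0.52 in replicate 2. Each region entered with the ratio of 1 start window, also where it overlapped several. For Kansl1 this was another window than the one shown, with a ratio of 0.956. The effect of that choice was not tested. Regions of one gene share a host, and all points share the same libraries. Baz2b lay outside the trend, with the highest enrichment and a CpG ratio below 0.6.

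**Figure D2:**
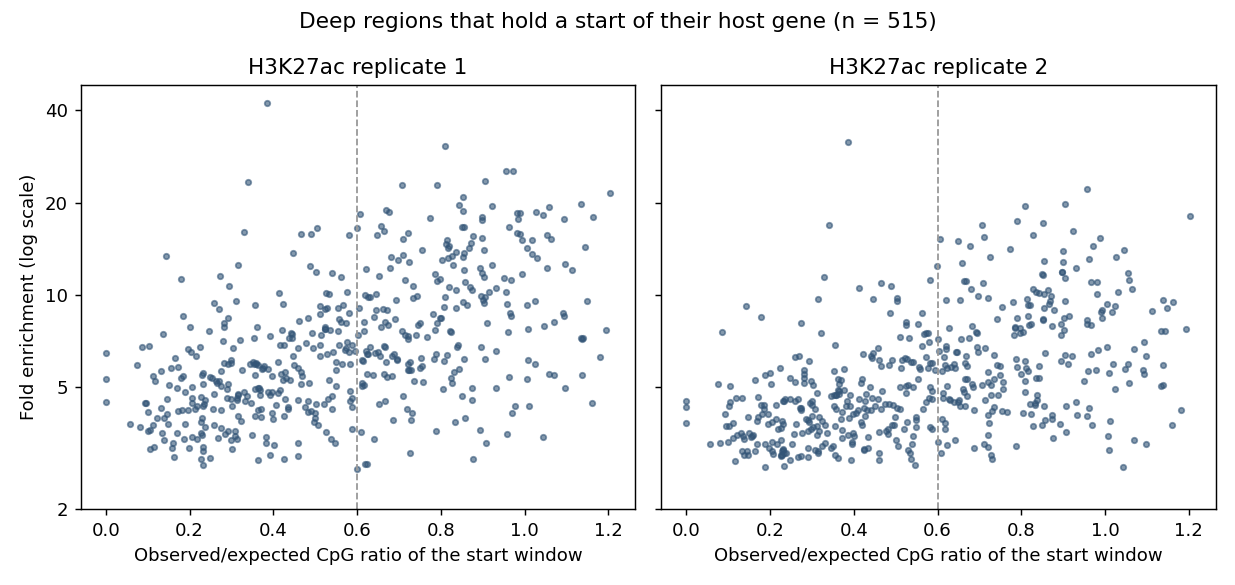
Fold enrichment (log scale) of the 515 deep regions that hold a start of their host gene, against the observed to expected CpG ratio of the start window, in replicate 1 and replicate 2. Each point is a region, drawn with 1 start window, and the dashed line marks a ratio of 0.6. Points to the right of the line sit higher, with medians of 8.57 and 6.34 against 5.17 and 4.25.

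Sequence motifs were counted on both strands of the 300-base windows as exact letters. GGGCGG, the core of the GC box bound by Sp and Klf factors, was present in 51.4% of protein-coding deep starts inside a region, 17.8% of those outside and 36.0% of all promoter windows. CCGGAAG, an ETS family site, was present in 7.31%, 2.08% and 9.0%. TATAAA, the TATA box, went the other way, with 6.97%, 15.5% and 13.6%. CCAAT was present in 32.3%, 37.5% and 37.3%, and the E-box CAGCTG, a site of proneural factors, in 19.7%, 22.0% and 16.3%. GGGCGG and CCGGAAG each hold a CpG, so their shares move with the CpG ratio. The Kansl1 window above holds GGGCGG, and the Baz2b window holds the CCAAT and TATA letters and also the full cAMP response element. A match is no evidence that a factor binds there.

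The deep regions were mostly short. Their length ran from 200 to 32274 bp with a median of 827 bp (quartiles 446 and 1523 bp), and 4018 (29.2%) were under 500 bp while 59 reached 10 kb. The median enrichment of all 13779 was 3.96 in replicate 1 and 3.49 in replicate 2. Regions within 10 kb of a gene end had 5.47 and 4.33, and regions outside genes had 4.12 and 3.58. An enrichment of 10 or more was found for 1.59% and 0.581% of deep regions in the respective libraries, against 22.2% and 11.5% near gene ends and 2.01% and 0.549% outside genes. The difference from regions near gene ends was small among short regions. At 200 to 500 bp the medians were 3.61 and 3.30 for deep regions and 3.67 and 3.33 near ends, while at 1 to 2 kb they were 4.15 and 3.59 against 6.99 and 5.32. Between the libraries, the enrichments of the 13779 regions had a Spearman correlation of 0.56, as a description of values drawn from peaks that had to overlap.

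The 10 longest regions lay in Dab2ip (32274 bp), Msi2 (29444 bp), Iffo2 (26864 bp), Clmn (26250 bp), Zmynd8 (24066 bp), Ece1 (22779 bp), Gse1 (21226 bp), Plec (20008 bp), Slc6a6 (19048 bp) and Prrc2b (18127 bp). The region in Dab2ip, a Ras GTPase-activating protein, ran over chr2:35674135-35706408 with enrichments of 5.81 and 4.65. The region in Msi2 ran over chr11:88642567-88672010 with 6.41 and 4.94. None of the 10 passed 8.28 in replicate 1 or 7.17 in replicate 2, so the longest regions were not the most enriched. A start of the host gene lay in 5 of them, those of Dab2ip, Iffo2, Zmynd8, Ece1 and Gse1. Dab2ip itself had no H3K27ac in both libraries within 1 kb of either annotated gene end.

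Eligible sequence was present in 9372 protein-coding genes and summed to 702 Mb, of which 2.51% was covered by deep regions at 1.96 regions per 100 kb. A deep region was found in 3354 of these genes (35.8%). Hosts differed in number of regions. Of the 3354, 1289 (38.4%) held a single region and 79 held 20 or more, and those 79 accounted for 15.9% of all assignments of a region to a host. Hosts had more room than other genes, with a median of 60.5 kb of eligible sequence against 18.4 kb, and the number of regions had a Spearman correlation of 0.43 with eligible length over the 9372 genes. Within a host, neighbouring regions were a median of 4410 bp apart, and 71.2% of 10504 neighbouring pairs were no more than 10 kb apart. Neighbouring regions can be parts of one long peak in 1 library that is broken in the other. The 13779 regions lay under 12580 distinct peaks of replicate 1 and 13184 of replicate 2.

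Msi2, which encodes an RNA-binding protein of progenitor cells, held the most regions. Its 62 regions covered 202109 bp, or 56.3% of its eligible sequence, inside the gene at chr11:88339382-88718306. Their enrichment ran from 2.79 to 8.17 in replicate 1 (median 3.99) and from 3.03 to 7.95 in replicate 2 (median 3.65). They lay under 48 distinct peaks of replicate 1 and 55 of replicate 2. None held a start of the gene, and none was overlapped by H3K27me3 in both libraries. Gse1, a coiled-coil protein found with the CoREST complex, held 54 regions over 39.3% of its eligible sequence, with 2 at its own internal starts and 7 overlapped by H3K27me3 in both libraries. Those 54 regions lay under 33 peaks of replicate 1 and 52 of replicate 2.

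Transcription factors came next. Tcf4, an E protein that pairs with proneural factors, held 51 regions over 18.5% of its eligible sequence, with enrichments up to 11.2 and 11.3. Etv6, an ETS family repressor, held 46 regions over 35.1%, and Foxp1, a forkhead factor, 40 over 7.30%. Arid1b, a subunit of the BAF chromatin remodelling complex, held 45 over 14.2%. Zfhx3, a large homeodomain and zinc finger factor, held 39, among them a region that reached 19.2 and 13.9. Tshz2, a zinc finger factor, held 36, and Tead1, the DNA-binding partner of Yap, held 33.

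The rest of the 20 leading hosts had varied roles. Tns3, a focal adhesion protein, held 39 regions over 35.0% of its eligible sequence, Shroom3, which drives apical constriction, 38 over 22.2%, and Nav2, a cytoskeletal regulator of neurite growth, 38 over 7.01%. Agap1 held 36, Cmip 35, Rad51b, a recombination repair protein, 35, and Arhgap26 35. Zmiz1, Sgms1 (a sphingomyelin synthase) and App (the amyloid precursor protein) held 33 each, and Trak1, an adaptor of mitochondrial transport, held 30. These 20 hosts held 791 regions between them. The share of eligible sequence covered ranged from 5.24% in Arhgap26 to 56.3% in Msi2, so rank by number and rank by coverage were different orders.

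**Figure D3:**
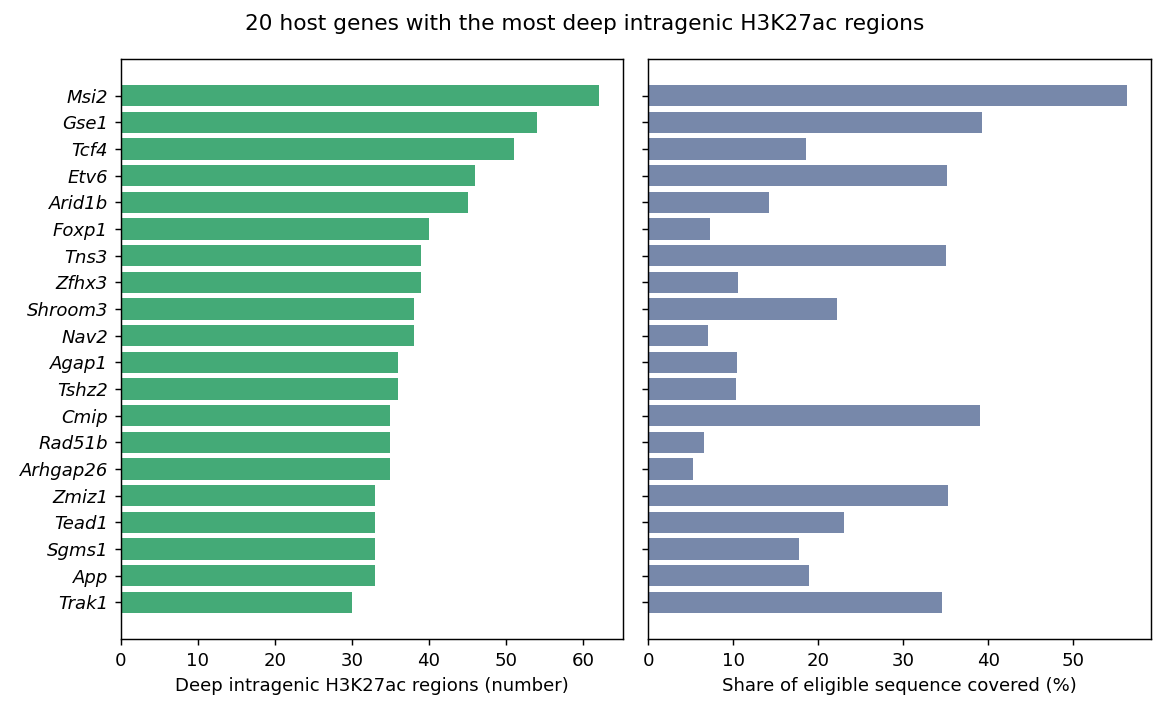
Number of deep intragenic H3K27ac regions (left) and share of the eligible sequence covered by them (right, %) for the 20 host genes with the most regions. Each bar is a gene. Msi2 leads both panels with 62 regions and 56.3%, while Arhgap26 has 35 regions over 5.24%.

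**Figure D4:**
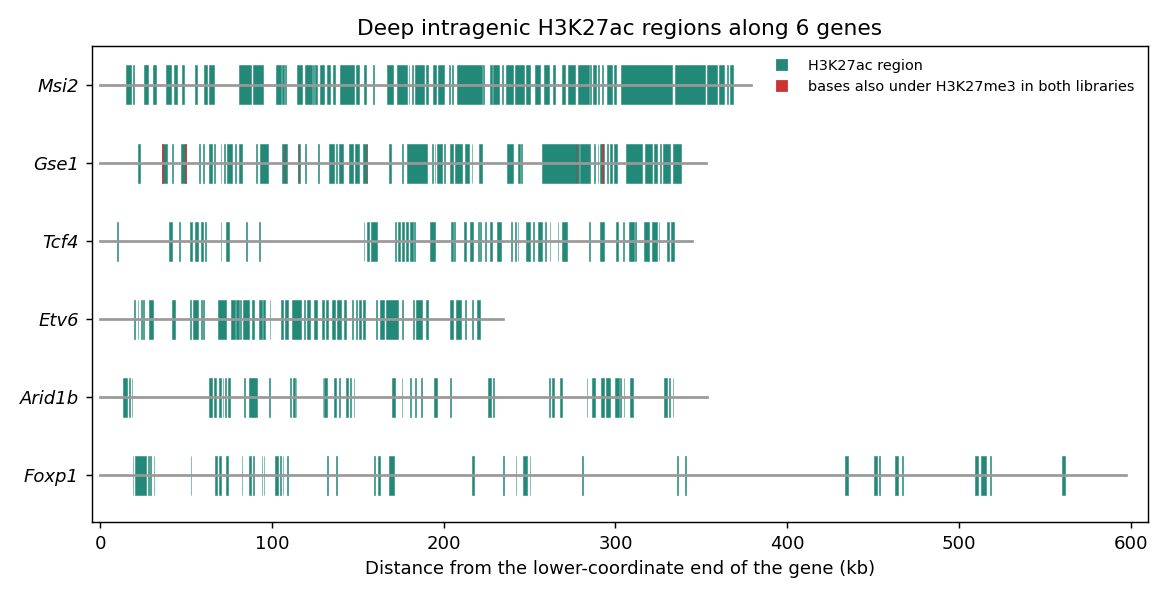
Deep intragenic H3K27ac regions (green) along the 6 genes with the most regions, by distance from the lower-coordinate end of each gene (kb), with bases also covered by H3K27me3 in both libraries in red. Lines are gene bodies. Wide blocks fill much of Msi2, and red is seen in Gse1 alone among these 6 genes.

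Relative to length, the densest hosts with at least 4 regions were shorter genes. Hip1r, an actin-binding adaptor of clathrin coats, had 41.6 regions per 100 kb (4 regions in 9612 bp of eligible sequence), Reep5 39.6 and Mapkapk2, a kinase downstream of p38, 37.2. Aspscr1 (36.4), Ssx2ip (32.3), Mta1 (31.7), Fbxo32 (31.6), Acsf2 (30.7), Maml1 (28.6) and Abcb9 (28.4) followed. Mapkapk2 held 9 regions in 24170 bp, and each of the other 9 held 4 to 6. In Hip1r all 4 regions had the same replicate 1 value, 4.46, and they lay under 1 distinct peak of that library and 4 of replicate 2.

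At the other end, 102 of the 198 genes with 500 kb or more of eligible sequence held no deep region. The share over all genes with eligible sequence was higher, at 6018 of 9372. Cntnap2, Lsamp, Lrp1b, Nrxn3 and Csmd1, which encode adhesion and synaptic proteins of neurons, held none. Ptprd, with 2250504 bp of eligible sequence, held 1 region, of 1680 bp, with enrichments of 6.67 and 5.98. Over a list of 42 neuronal genes of extreme length, 13 held a region and the density was 0.0854 per 100 kb, against 1.96 over all eligible sequence. Rbfox3 held 8 regions, of which 6 were overlapped by H3K27me3 in both libraries.

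The gene lists were compared by counts only, beside the 35.8% of all genes with eligible sequence, and their genes differ in length from the average. By eligible length, the share of all genes with a region was 16.2% below 20 kb and 51.3% at 50 to 100 kb. It was 60.7% at 100 to 200 kb and 59.2% at 200 kb and more. Of 68 transcription factors with long genes 59 (86.8%) held a region, at 4.4 regions per 100 kb and a median eligible length of 198 kb against 29.1 kb for all 9372 genes. Beside those above, Mecom held 29, Nfia and Foxn3 28 each, Ebf1 and Ebf2 27 each and Nfib 26. Sox6, Foxp2, Tcf12 and Etv1 were among the 9 with none, although Sox6 has 550 kb of eligible sequence. Among 61 chromatin and transcription co-regulators 39 (63.9%) held a region at 3.71 per 100 kb. Beside Arid1b, Rere held 25, Auts2 22, Chd7 20 and Arid5b 18. The acetyltransferase genes Ep300 and Crebbp and the Polycomb genes Ezh2, Eed and Suz12 held none.

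For the cytoskeleton, 38 of 43 linker and junction genes (88.4%) held a region at 4.24 per 100 kb. Nav1 held 25, Tns1 20 and Myo10 18, and Tjp1, which encodes the tight junction protein ZO-1, had a region of 25.4 and 14.5. Axon guidance genes had a lower density. There 27 of 39 (69.2%) held a region, but at 0.978 per 100 kb, with Sema4d at 11, Ephb2 and Nrp2 at 10, and Robo1 and Ntn1 at 9. The median eligible length of that list was 169 kb. The receptors Dcc and Unc5c and the ligand Slit2 held none.

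In the Notch pathway, 14 of 19 genes with eligible sequence held a region, at 3.94 per 100 kb. Among the receptors Notch2 held 15 and Notch1 1, the latter 6217 bp long with 6.13 and 3.70. The ligand gene Jag1 held 1, and the coactivator genes Maml3, Maml2 and Maml1 held 19, 16 and 5. Rbpj, the DNA-binding effector of the pathway, held 1 region at chr5:53588873-53591901 that contained an internal start and reached 19.6 and 10.1. In the Wnt pathway 26 of 39 genes held a region, at 3.75 per 100 kb. The planar polarity gene Celsr1 held 21, the effectors Tcf7l2 and Tcf7l1 17 and 9, and the receptor genes Lrp5, Lgr4 and Lgr5 10, 8 and 3. In the Tgfb and Bmp pathway 16 of 30 did so, at 3.62 per 100 kb. Smad3, a receptor-activated effector, held 20, the inhibitor Smad6, the repressor Ski and the receptor Tgfbr2 held 9 each, and Smad2 and Smad4 held none. Among receptor tyrosine kinases 17 of 29 did so, at 2.04 per 100 kb, led by Igf1r (26) and Flt1 (12).

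Kit, the receptor used to select the cells, held 5 regions of 323 to 954 bp. Their enrichments were 2.65, 3.07, 3.56, 3.06 and 4.79 in replicate 1 and 3.88, 2.95, 3.13, 3.13 and 3.48 in replicate 2, in order along the gene. None reached 5, and in each library 3 of the 5 lay below the lower quartile of all deep regions (3.38 in replicate 1 and 3.14 in replicate 2). Lgr5, a Wnt co-receptor of globose basal cells, held 3 regions with 4.89, 4.57 and 6.0 in replicate 1 and 3.92, 3.56 and 5.21 in replicate 2. Lhx2, a homeodomain factor of the olfactory lineage, held 1. Of the 7 globose basal cell markers with eligible sequence these 3 (42.9%) held a region, against 35.8% of all genes with eligible sequence. On that list 15 of 15 markers carried H3K27ac of both libraries within 1 kb of a gene end. The share was 72.1% over all genes with eligible sequence, an unlike set, since the 15 include markers without eligible sequence.

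Genes of the neuronal descendants also held regions. Of 6 immature neuron genes with eligible sequence 5 did, where the share over all genes with eligible sequence was 35.8%. Median eligible lengths were 137 kb for these 6 genes and 29.1 kb for all. Ebf2 and Ebf1, helix-loop-helix factors of olfactory neurons, held 27 each, with maxima of 7.21 and 5.99 for Ebf2 and 8.07 and 5.62 for Ebf1. Ncam1, a neuronal adhesion molecule, held 10, with 3.82 to 10.7 in replicate 1 and 3.10 to 7.72 in replicate 2, and none was overlapped by H3K27me3 in both libraries. Gap43, a growth cone protein, held 2. Of 6 mature neuron genes 5 held a region. Gnal, the olfactory G protein, held 2, with 12.2 and 5.07 in one and 6.56 and 6.05 in the other, and the first was wholly covered by H3K27me3 of both libraries. The channel subunit gene Cngb1 held 4 (3.34 to 7.68 and 3.49 to 5.71), with no overlap with H3K27me3 of both libraries.

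Markers of other cell types were present as well, and their part in the regions was not tested. The counts below stand beside a share of 35.8% of all genes with eligible sequence that held a region. Of 6 horizontal basal cell genes 3 held a region, with Egfr at 5, Itga6 at 2 and Trp63, the defining factor, at 1. Of 8 stromal and endothelial genes 5 did so, with Flt1 at 12, Pecam1 at 4, Cdh5 at 3, Pdgfrb at 2 and Pdgfra at 1. Among 5 leukocyte genes only Runx1 did (17 regions), and Ptprc, the pan-leukocyte gene, and Itgam, Csf1r and Adgre1 held none. Hdc (2) and Mitf (1) did so among 5 mast cell and melanocyte genes, and neither of 2 sustentacular and gland genes did. At gene ends, markers were counted with or without eligible sequence. The share of 72.1% over all genes with eligible sequence is therefore of an unlike set. H3K27ac of both libraries was found at an end for 9 of 9 immature neuron, 6 of 9 mature neuron and 6 of 10 horizontal basal cell genes. It was found for 10 of 10 sustentacular and gland, 6 of 10 leukocyte, 3 of 10 mast cell and melanocyte and 6 of 10 stromal and endothelial genes. Regions in one gene cannot be assigned to a cell type from these data.

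H3K27me3 was not part of the rule, and it was less frequent on deep regions than on other H3K27ac regions. A region was counted as overlapped, or as under H3K27me3, where at least 1 bp of it was covered. H3K27me3 replicate 1 overlapped 21.8% of deep regions and replicate 2 11.0%, against 31.9% and 18.0% of all H3K27ac regions. Both libraries overlapped 1001 deep regions (7.26%), against 14.0% of all, 18.5% of those near gene ends and 12.3% of those outside genes. In each library, and in each of 4 length classes, deep regions had the lowest share. At 200 to 500 bp the share under both libraries was 4.45% for deep regions, 14.5% near ends and 9.43% outside genes. Above 2 kb it was 12.5%, 25.3% and 16.3%. The libraries differed from each other about as much as the classes did, so the order within each library is the comparison that can be read, and 2 libraries allow no test across samples.

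Relative to the rest of the eligible sequence of all 9372 genes, however, deep regions carried more H3K27me3. Replicate 1 covered 12.4% of their bases and 3.21% of the rest of the eligible sequence, and replicate 2 covered 6.27% and 2.83%. The ratios were 3.86 and 2.21. That rest includes genes without a deep region, and sequence next to the regions was not measured on its own. Of the deep regions, 496 (3.60%) were covered over at least 50% of their length by both libraries, and 239 were wholly covered.

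Deep regions that hold a host start stood out. H3K27me3 replicate 1 overlapped 53.2% of them, replicate 2 29.7% and both 26.8%. Regions with no start had 19.5%, 9.53% and 6.01%, and regions at the start of another gene 42.4%, 24.5% and 15.1%. Host-start regions are longer, as given above, and the share also rises with length, and the part of length in this difference was not tested.

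**Figure D5:**
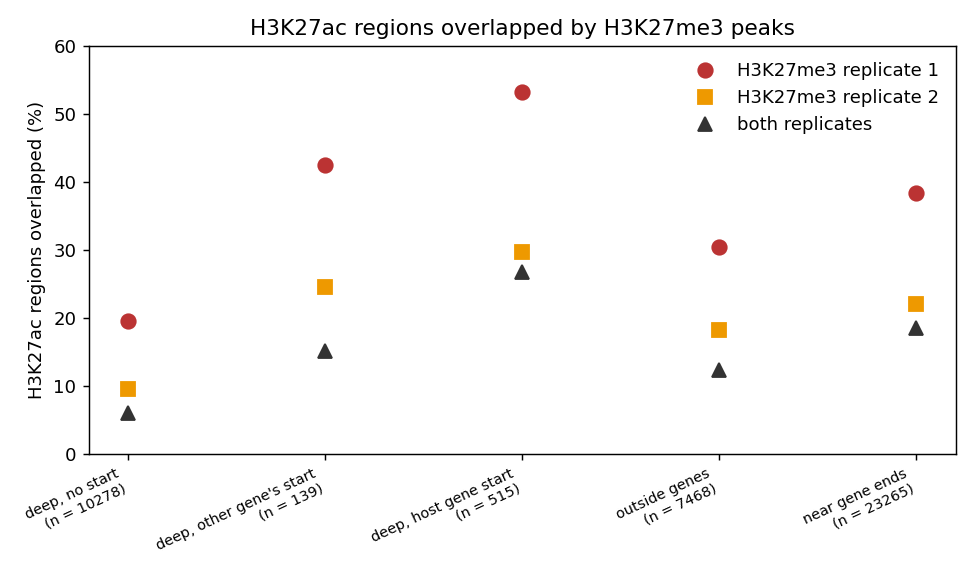
Share of H3K27ac regions overlapped by at least 1 bp by H3K27me3 peaks of replicate 1 (circles), replicate 2 (squares) and both (triangles), by position of the region. Deep regions with a host start reach 53.2%, 29.7% and 26.8%, and deep regions with no start have 19.5%, 9.53% and 6.01%, the lowest of the 5 classes.

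The region with the longest stretch under both H3K27me3 libraries was the one at the internal start of Lhx2 whose sequence is given above. At chr2:38350017-38357976, all of its 7960 bp were covered by both, with H3K27me3 enrichments of 8.67 and 4.94 beside H3K27ac enrichments of 13.8 and 10.2. The internal start of Runx1, a factor of blood and sensory neuron development, was similar. There 4629 of 4707 bp at chr16:92694541-92699247 were under both H3K27me3 libraries, with H3K27me3 enrichments of 5.91 and 4.94 and H3K27ac enrichments of 14.3 and 9.38. Both start windows were CpG-rich, at 0.835 for Lhx2 and 1.01 for Runx1, like the Kansl1 and Slc39a10 windows, where H3K27me3 of both libraries was not found. Msi1, the paralogue of Msi2, held a region of 14125 bp with H3K27ac at 10.6 and 7.00, of which 44.8% was under both H3K27me3 libraries. Cuedc1 (6414 bp under both), Rai1 (5497 and 4522 bp in separate regions), Shisal1 (5269 bp), Plec (5230 bp), 2900026A02Rik (5206 bp) and Smad3 (3902 bp) made up the rest of the 10 regions with the most H3K27me3.

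By gene, at least 1 region overlapped by 1 bp or more by both H3K27me3 libraries was found in 606 of the 3354 hosts. Of 356 hosts with 10 or more regions, 232 had none and 7 had 50% or more of their regions so overlapped. Prdm16, which encodes a PR domain zinc finger factor, had 15 of 16 regions overlapped by both libraries, with H3K27ac enrichments of only 2.77 to 4.38 and 2.79 to 3.81. The predicted gene 2900026A02Rik had 11 of 18, Smad3 10 of 20, Nav2 10 of 38 and Casz1 9 of 25. Rreb1 (of 13), Man1c1 (of 16), Runx1 (of 17), Ano6 (of 18), Tns1 (of 20), Arhgap26 (of 35) and Gse1 (of 54) each had 7. Ebf3 had 6 of 12, against 3 of 27 in its paralogue Ebf2 and 2 of 27 in Ebf1. Tcf4, Etv6, Arid1b, Foxp1 and Msi2 had none. An overlap so counted can be a small part of a region. Both libraries covered 67 of 21226 bp in the longest Gse1 region and 1.46% to 8.06% of the 3 Ebf2 regions.

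Host genes were more often acetylated at their ends than other genes. H3K27ac of both libraries lay within 1 kb of an annotated end in 2789 of 3354 hosts (83.2%), against 72.1% of all 9372 genes with eligible sequence and 66.0% of those without a deep region. The share was 78.4% with 1 region, 83.9% with 2 to 4, 88.9% with 5 to 9 and 89.0% with 10 or more. It was higher in hosts within each class of eligible length, from 87.0% against 69.7% below 20 kb to 75.5% against 45.2% at 200 kb and more. Both values rest on the same H3K27ac lists. H3K27me3 of both libraries at an end was found for 38.2% of hosts, 31.7% of all and 28.1% of genes without a region. Here the order under both libraries changed with length. Below 20 kb hosts had 30.2% and other genes 23.5%, and at 200 kb and more hosts had 52.8% and other genes 62.7%. For H3K27me3 replicate 1 alone hosts were higher in each length class, with 72.3% against 70.5% at 200 kb and more. Replicate 2 alone had 55.7% against 66.0% in that class. The order under both libraries also changed with the peak threshold: at a −log10 q of 5 or more the share was 2.98% in hosts and 5.11% in genes without a region.

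Some hosts had many deep regions and no H3K27ac of both libraries at either end. Zfhx3 had 39, Nav2 38, Nedd4l, a ubiquitin ligase, 29, Frmd4a 24, Dab2ip 21, Lipc, which encodes hepatic lipase, 21, Gramd1b 20, Stard13 18 and Lrrfip1 17. Zfhx3, Nav2, Frmd4a, Dab2ip, Stard13 and Lrrfip1 each held at least 1 deep region at an internal start. Lipc held none at a start, and none of its 21 regions was overlapped by either H3K27me3 library.

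Along the gene, regions lay more often in the middle. For 10975 assignments to hosts of known strand, the 5′ part of the gene, cut into 3 equal lengths, held 29.9% of regions and 30.4% of the eligible sequence, the middle part 44.7% and 39.3%, and the 3′ part 25.4% and 30.3%. Without the regions that hold a start the shares were 30.0%, 44.3% and 25.7%. Whether a region is exonic or intronic was not determined, since exon positions were not used here.

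Members just inside the limits of the rule and runs just outside had the following values. Regions of exactly 200 bp in Map4k4 (3.17 and 3.46), Tenm3 (5.08 and 3.46) and Akap13 (4.99 and 3.42) were kept. Runs of 199 bp in Plxnd1 (5.43 and 3.37), Zfp407 (5.03 and 3.26) and Zfp516 (3.50 and 2.99) were left out. Regions that began 10001 bp from a gene end in Mbnl2 (5.29 and 3.73) and Apobec1 (5.60 and 4.82) and 10002 bp away in Tgfb3 (2.78 and 3.13) were kept. Regions 9997 bp away in Coro2b (3.00 and 3.25), 9995 bp in Depdc7 (4.33 and 3.80) and 9993 bp in Mta1 (3.24 and 2.88) were counted as near an end.

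The lists held 76790 and 63503 H3K27ac peaks and 93104 and 63826 H3K27me3 peaks on chromosomes 1 to 19 in replicates 1 and 2. The share of peaks with a −log10 q of 5 or more was 30.8% and 18.6% for H3K27ac and 5.96% and 2.35% for H3K27me3. No read totals came with these lists, so sequencing depth is unknown here and intervals cannot be given. Regions too weak for this threshold would be missed at an unknown rate.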

How the data were processed

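ChIP-seq peak lists were used for 2 H3K27ac and 2 H3K27me3 libraries, grouped and numbered by the sample titles. Reads were processed with fastp, Bowtie, Picard and MACS2 against GRCm38 (mm10), per the submitters' processing notes. No tool versions are given in the sources used here. The authors deposited 1 broad-peak list per library, with 9 columns and no header. Each peak has a fold enrichment (a linear ratio), a −log10 p, a −log10 q and a score, all as deposited by the authors, and the smallest −log10 q is about 1. Broad-peak values are averages over a peak, so a short strong site inside a long peak is diluted.

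Regions were the bases covered in both H3K27ac lists. A run that crossed the 10 kb limit was counted whole as near an end. Gene ends and biotypes were those of RefSeq for GRCm38.p6 (20661 protein-coding genes on chromosomes 1 to 19), and start windows and microRNAs from RefSeq sequence tables of the same build. The table of start windows holds none for chromosome 18. The CpG ratio is the observed number of CpG over that expected from the C and G content. Computation used Python 3.11.15, numpy 2.4.6 and pandas 2.3.3, and was tested on simulated peaks. No test was run, since there are 2 libraries for each mark, regions are not replicates, and the rule used the H3K27ac lists. Nothing in the labels says that the replicates are separate experiments beyond separate pools of 3 mice.

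The members, gene lists and naming rule were chosen with earlier results of these data known. Named genes are the 20 hosts with the most regions, the 10 with the highest density among hosts with at least 4 regions, the hosts of the 10 longest, 10 most enriched and 10 most H3K27me3-covered regions, and up to 6 members of each list. Predicted genes were left out of the first. Genes named at 0 regions, hosts with the most H3K27me3 or without H3K27ac at their ends, the longest genes, the neighbours of the limits and further list members were chosen after their values were seen. Some genes and 1 gene list are not reported here. Alternatives were stricter −log10 q, other lengths, distances and windows, the ends of every gene kept clear, and each library left out.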

Additional observations from a re-analysis of the deposited data

How the results depend on the processing

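Under each of 13 alternatives, deep regions had the lowest share under H3K27me3 and hosts had H3K27ac at an end more often than genes without a region. Hosts had H3K27me3 at an end more often under 12, and less often at a −log10 q of 5 or more (2.98% against 5.11%). These comparison groups were added after seeing the data. Some of the 13 alternatives could not change a given share, so these counts overstate the number of separate checks. Leaving out an H3K27me3 library, or requiring cover of at least 50% of a region, could not change the H3K27ac shares at ends. Windows of 2.5 kb could not change the H3K27me3 shares of regions, and the 50% cover could not change the H3K27me3 shares at ends. The number of deep regions was 7513 with a −log10 q of at least 2 and 1153 with at least 5, and 19773 to 24790 when 1 H3K27ac library was left out (the higher without replicate 2). Host genes numbered 805 with a −log10 q of 5 or more and 2140 with a distance of more than 20 kb. The share of deep regions under H3K27me3 was 6.51% to 21.8% when 1 library was left out, the higher without H3K27me3 replicate 2. With a −log10 q of 2 or more it was 2.82%, against 10.2% near gene ends and 3.76% outside genes. With 5 or more it was 0.347% of 1153 regions, against 0.709% and 0.465%, so very few regions set the order there. The share of hosts with H3K27ac at an end was 78.8% with a −log10 q of 2 or more, 61.2% with 5 or more, 87.6% with windows of 2.5 kb, and 83.7% to 87.1% with 1 H3K27ac library. The share with H3K27me3 at an end was 23.9% with a −log10 q of 2 or more, 2.98% with 5 or more and 36.5% to 62.1% with 1 library left out. The median enrichment near gene ends minus that of deep regions was 1.51 in replicate 1. With a −log10 q of 2 or more this became 2.56, with 5 or more 3.23. The value was 2.10 for regions of at least 500 bp, 2.45 beyond 5 kb, 0.956 beyond 20 kb, 1.03 with the ends of every gene kept clear, and 0.512 without replicate 2. In replicate 2 it was 0.842, and 1.55, 2.02 and 1.49 at −log10 q of 2 and 5 and beyond 5 kb, and 0.478 without replicate 1. The share of deep protein-coding starts in a region was 36.1% and 21.8% at −log10 q of 2 and 5, and 44.2% to 50.1% with 1 library. The cause was not tested, apart from fewer peaks under a stricter −log10 q and more bases where 1 library suffices. Trimming regions at the limit and the settings for starts were chosen after seeing the data, and the enrichment difference was not run for trimmed regions. No paired analysis was possible because the results come from no test, and because replicate numbers do not match across marks, the same input serving replicate 1 of H3K27me3 and replicate 2 of H3K27ac. Unknown depth limits how many weak regions can be seen.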

Other observations

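The hairpins of some microRNAs lie in deep regions. Mir26a-1, inside its host Ctdspl, is an example with a conserved product. Its region of 406 bp at chr9:119031554-119031959 had H3K27ac enrichments of 3.27 and 3.42 and no H3K27me3 of either library. The mature product, with its seed (bases 2 to 8) in capitals, is shown because it names the hairpin.
mmu-miR-26a-5p: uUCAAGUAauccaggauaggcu
The region around Mir7687 in Gse1 was longer and stronger, 9385 bp with 9.92 and 7.40. It also held an internal start of Gse1, and H3K27me3 replicate 1 covered 1539 bp of it. The region around Mir761 in Nrd1 was 391 bp with 3.87 and 3.51. Whether these regions act on the hairpins was not tested.

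Of the 13779 deep regions, 374 contained an end of a noncoding gene, and a share over other eligible sequence of like length was not measured. The longest of the 374 were in Gse1 (21226 bp, Gm51556), Slc6a6 (19048 bp, Gm44981), Septin9 (15645 bp, Gm34065) and Actn4 (15019 bp, Gm38978 and Gm51446).

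Density differed by chromosome, from 1.43 regions per 100 kb of eligible sequence on chromosomes 1 and 3 to 2.78 on chromosome 11, which carries Msi2, Tns3 and Kansl1.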
